A study of Mus musculus with 16 samples.

Results

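The genes described here are 6 genes of vitamin D action and calcium uptake, out of 39328 genes measured in mouse colon: Trpv6, S100g, Atp2b1, Atp2c2, Vdr and Cyp24a1. They were chosen by symbol, and each symbol matched 1 row of the table. They had been picked with values of these same libraries in view, so their levels and differences are given as descriptions, without tests. RNA sequencing had been done on total RNA from the colon of adult wild-type (WT) mice of the outbred ICR stock, 16 libraries in all. The 4 groups, of 4 libraries each, combined the mode of birth with what the mice drank. CON_VD mice were born by vaginal delivery and drank normal water. CON_CS mice were born by cesarean section and drank normal water. DSS_VD and DSS_CS mice were born vaginally or by cesarean section, and drank dextran sulfate sodium (DSS) at 3% for 8 days. DSS is a sulfated polysaccharide that injures the colon lining. No label ties the libraries to separate mice, and the p-values therefore rest on the spread between libraries, which may be technical.

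As background, active vitamin D binds the vitamin D receptor, a nuclear receptor that pairs with a retinoid X receptor and binds DNA. In the gut epithelium it raises transcription of the genes that carry calcium from the lumen to the blood. Calcium enters through the channel TRPV6 in the apical membrane, is buffered and carried through the cell by calbindin-D9k, the product of S100g, and leaves through the plasma membrane calcium pump PMCA1, the product of Atp2b1. The receptor also induces Cyp24a1, whose enzyme breaks active vitamin D down. Atp2c2 encodes SPCA2, a secretory pathway pump that moves calcium and manganese into the Golgi.

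The promoters of the entry channel and of the buffer are shown because both genes are known vitamin D targets and differed more between birth modes, on water and under DSS, than the other 3 genes with enough values. The vitamin D receptor recognises pairs of 6-base half-sites, and AGGTCA is the general nuclear receptor half-site. The lines give the 250 bases before the annotated start, from RefSeq promoter windows on GRCm38.p6. The S100g stretch is chrX:162964600-162964849 and the Trpv6 stretch is chr6:41636406-41636655, both on the minus strand and written 5′ to 3′. Capitals mark half-sites on either strand.
S100g: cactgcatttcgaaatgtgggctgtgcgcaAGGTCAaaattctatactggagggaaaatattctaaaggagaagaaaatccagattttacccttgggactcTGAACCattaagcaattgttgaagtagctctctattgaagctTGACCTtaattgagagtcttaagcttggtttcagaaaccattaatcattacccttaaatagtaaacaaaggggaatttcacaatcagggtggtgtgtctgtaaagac
Trpv6: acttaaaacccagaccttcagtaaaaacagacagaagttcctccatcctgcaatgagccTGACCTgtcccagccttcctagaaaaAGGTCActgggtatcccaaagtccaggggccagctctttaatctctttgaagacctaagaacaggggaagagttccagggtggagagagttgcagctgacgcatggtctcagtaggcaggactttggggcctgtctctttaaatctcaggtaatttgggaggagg

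The search covered windows of 300 bases, 250 before the start and 50 after it, on both strands. Windows were on hand for 4 of the 6 genes: S100g, Trpv6, Vdr and Atp2b1, which had a pair of them. The first motif, AGGTCA, occurred in S100g at -220 on the gene's strand and at -107 on the opposite strand, counted from the start. In Trpv6 it occurred at -191 on the opposite strand and at -165 on the gene's strand. Of all 32851 promoter windows, 16.3% held this motif, and 1.81% held it at least 2 times, as both of these did. The motif GGTTCA, held by 10.4% of windows, was in S100g at -149 on the opposite strand. A further motif, AGGTGA, held by 17.4% of windows, was in S100g at 35 on the opposite strand, beyond the printed stretch. The window of Vdr had no half-site. Atp2b1 had 1, GGGTGA at -157 on the opposite strand in 1 of its windows, and 16.2% of windows held that motif. The last motif searched, GGGTCA, was in 13.7% of windows and in none of these genes' windows. The half-sites found did not overlap each other. A DR3-type element was searched as a direct repeat of the half-site consensus RGKTSA spaced by 3 bases. Here R is A or G, K is G or T and S is C or G, so it admits more half-sites than those listed. An exact element was in 0.256% of windows and in none of these genes' windows. With up to 2 mismatches, 48.3% of windows held one, and so did those of Trpv6 and Vdr. These matches describe letters in a window and are not evidence of binding.

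Levels are FPKM, fragments scaled by gene length and library depth, as deposited. Differences are in log2(FPKM + 1) with the standard error (SE) from limma, a linear model fitted over all genes. This scale understates the change of genes with low values. A gene entered a comparison when at least 4 of its libraries reached 1 FPKM, and it was called when its p, adjusted by Benjamini-Hochberg over all genes tested, was under 0.05.

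Library sums of FPKM ranged from 280135 to 343423. A score of 10 epithelial markers, the mean of their log2(FPKM + 1), ran from 7.87 to 8.06 in CON_VD and from 7.83 to 8.05 in CON_CS. It ran from 6.75 to 7.80 in DSS_VD and from 5.23 to 6.83 in DSS_CS. All 10 markers were above 0 in every library, so the epithelium of the labelled tissue was present, and their summed levels were 4166 to 4945, 4833 to 5123, 2002 to 4280 and 727 to 2192 FPKM in the same order of groups. Epcam, an epithelial adhesion protein, stood at 618 to 756 FPKM on water, 317 to 716 FPKM in DSS_VD and 91.9 to 312 FPKM in DSS_CS. Summed leukocyte markers, all 8 above 0 in the DSS_CS libraries, were 78.0 to 320 FPKM in CON_VD, 90.4 to 105 FPKM in CON_CS, 626 to 1196 FPKM in DSS_VD and 1048 to 1723 FPKM in DSS_CS. Under DSS, summed surface colonocyte markers were 606 to 1691 FPKM in DSS_VD and 178 to 640 FPKM in DSS_CS, and goblet cell markers 1463 to 3425 FPKM and 328 to 1031 FPKM. Markers of the stem and crypt base summed to 19.7 to 29.6 FPKM on water, 9.42 to 14.4 FPKM in DSS_VD and 14.4 to 21.2 FPKM in DSS_CS. Smooth muscle markers summed to 1651 to 2661 FPKM on water, 1066 to 1387 FPKM in DSS_VD and 1200 to 2848 FPKM in DSS_CS. Enteric neuron markers summed to 13.1 to 29.3 FPKM on water, 45.9 to 65.3 FPKM in DSS_VD and 81.5 to 182 FPKM in DSS_CS. Erythrocyte markers summed to 28.4 to 332 FPKM on water, 241 to 975 FPKM in DSS_VD and 903 to 9731 FPKM in DSS_CS. So in DSS_CS the pan-epithelial, surface colonocyte and goblet cell lists were lowest and the leukocyte, neuron and erythrocyte lists highest on average. Markers of prostate and seminal vesicle, 8 of 9 in the table, were high in 3 libraries. Their summed level was 284 FPKM in CON_CS replicate 1, 205 FPKM in DSS_CS replicate 3 and 1901 FPKM in DSS_CS replicate 4, and at most 4.17 FPKM in the other 13. Values without some or all of these libraries stand beside the results.

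**Figure D1:**
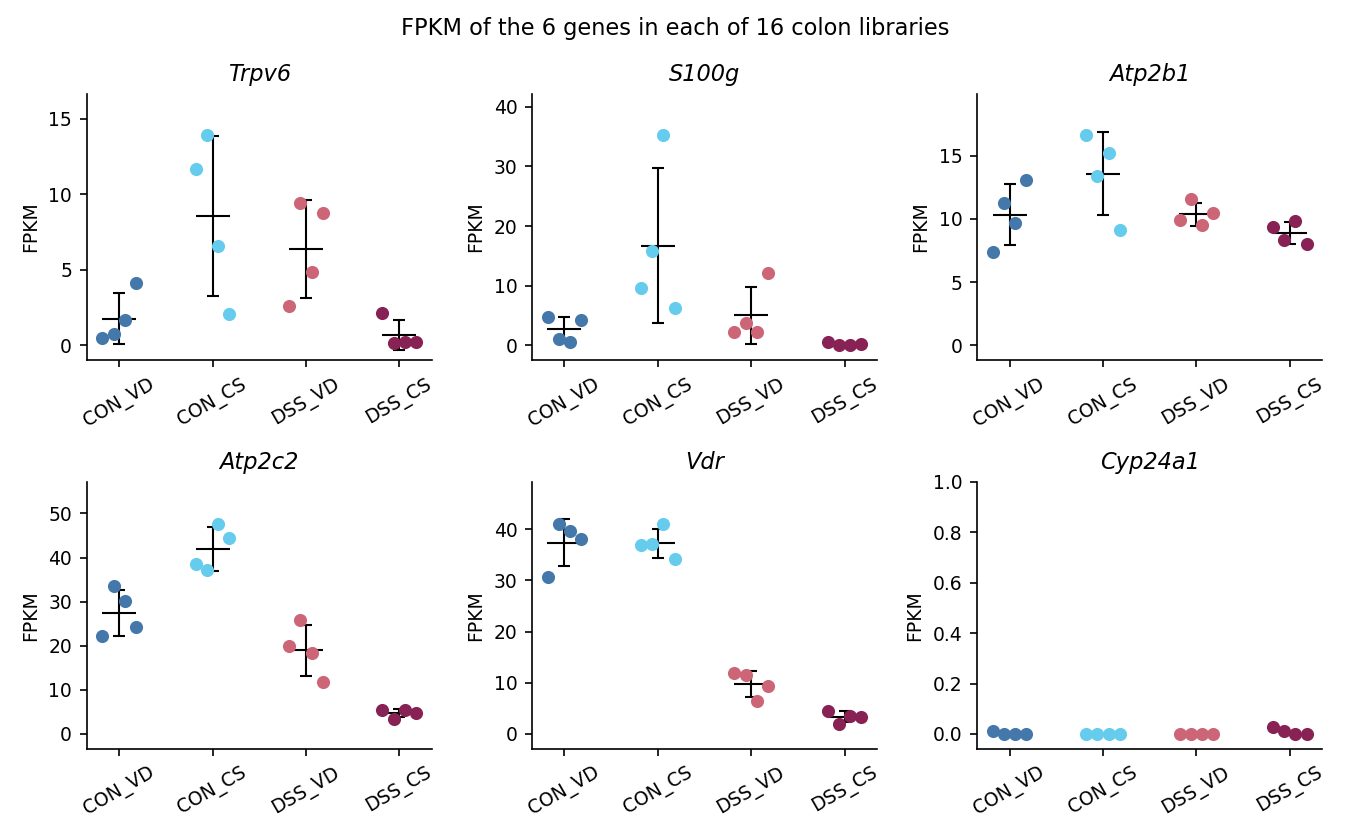
FPKM (vertical axis) of each of the 6 genes in the 4 groups, where each point is 1 library. Lines are the mean ± SD of 4 libraries and are left out where a library is listed at 0. S100g and Trpv6 are highest on average in CON_CS and lowest in DSS_CS. Vdr and Atp2c2 are low in all 4 DSS_CS libraries, and Cyp24a1 is near 0 throughout.

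Trpv6, the calcium entry channel (ENSMUSG00000029868, GRCm38 chromosome 6, 41620624 to 41636405, minus strand), was low in water-drinking mice born vaginally and higher in those born by cesarean section. Under DSS the order of the birth modes turned round. Its 4 CON_VD libraries stood at 0.517, 0.755, 1.66 and 4.15 FPKM, with a mean of 1.77 ± 1.66 FPKM (SD, n = 4). The CON_CS libraries stood at 11.7, 13.9, 6.60 and 2.07 FPKM, with a mean of 8.56 ± 5.29 FPKM (SD, n = 4). CON_CS replicate 4 lay within the CON_VD range, so the groups overlapped. The DSS_VD libraries stood at 2.58, 9.38, 4.84 and 8.78 FPKM, with a mean of 6.39 ± 3.25 FPKM (SD, n = 4). The DSS_CS libraries stood at 2.14, 0.161, 0.249 and 0.208 FPKM, with a mean of 0.691 ± 0.970 FPKM (SD, n = 4). Every DSS_CS library was below every DSS_VD library, and replicate 1, which also had the highest epithelial score of its group at 6.83, was far above the other 3 of its group. In bulk tissue, fewer cells of a type and less RNA per cell cannot be told apart.

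On the log2 scale Trpv6 was 1.73 ± 0.53 (SE) higher in CON_CS than in CON_VD. The DSS_CS value against DSS_VD was -2.15 ± 0.43 (SE). Against water, DSS gave 1.47 ± 0.44 (SE) in VD mice and -2.41 ± 0.52 (SE) in CS mice. The ranges of DSS_CS and CON_CS overlapped narrowly, through 2.14 FPKM in the former and 2.07 FPKM in the latter. The difference between these DSS responses was -3.88 ± 0.74 (SE). Without the 3 libraries with prostate markers it was -3.35, and without DSS_CS replicates 3 and 4 the difference under DSS was -1.83. Against CON_CS, DSS_CS differed by -2.09 without those 2 libraries. On water, Trpv6 was 1.52 higher without CON_CS replicate 1.

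S100g, the cytosolic calcium buffer (ENSMUSG00000040808, chromosome X, 162961992 to 162964599, minus strand), was low or absent in DSS_CS and highest on average in CON_CS. The gene lies inside Ctps2 on the other strand, with no shared exon. Its CON_VD libraries stood at 4.77, 1.12, 0.580 and 4.25 FPKM, with a mean of 2.68 ± 2.13 FPKM (SD, n = 4). The CON_CS libraries stood at 9.61, 15.8, 35.2 and 6.27 FPKM, with a mean of 16.7 ± 12.9 FPKM (SD, n = 4). On water every CON_CS library was above every CON_VD library. The DSS_VD libraries stood at 2.23, 3.73, 2.18 and 12.1 FPKM, with a mean of 5.07 ± 4.76 FPKM (SD, n = 4). They overlapped CON_VD, and replicate 4 stood apart above the other 3. In DSS_CS, S100g was at 0.512 and 0.299 FPKM in replicates 1 and 4 and listed at 0 in replicates 2 and 3. All of these were below the lowest DSS_VD library.

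The log2 difference of S100g between CON_CS and CON_VD was 2.21 ± 0.56 (SE), and that between DSS_CS and DSS_VD was -2.09 ± 0.43 (SE). Against water, S100g differed by 0.66 ± 0.55 (SE) in VD mice, a value that was 0.20 without DSS_VD replicate 4 and 0.33 without CON_VD replicate 3, and by -3.64 ± 0.44 (SE) in CS mice. The difference between the DSS responses was -4.30 ± 0.77 (SE). S100g entered the comparisons of DSS_CS only through the 4 libraries of the other group, since no DSS_CS library reached 1 FPKM. The direction of its differences from DSS_CS was therefore fixed by the filter, and their size depends on the pseudocount. Without DSS_CS replicates 3 and 4 the difference under DSS was -2.03 and that against CON_CS -3.58, and without CON_CS replicate 1 that on water was 2.37. The 3 libraries left out together gave -4.40 for the difference between responses.

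The higher S100g and Trpv6 levels of CON_CS went with an epithelial score that differed from CON_VD by -0.06. Surface colonocyte markers, all 8 in the table, summed to 2117 to 2956 FPKM in CON_VD and to 1691 to 2103 FPKM in CON_CS. Goblet cell markers, all 7 in the table, summed to 5310 to 7863 FPKM in CON_VD and to 3650 to 4974 FPKM in CON_CS, so both lists were lower in every CON_CS library. Markers of distal colon position, 4 of 5 in the table, summed to 172 to 249 FPKM and 219 to 262 FPKM in the same order and overlapped. With DSS, the epithelial score differed by -1.22 between DSS_CS and DSS_VD and by -1.99 between DSS_CS and CON_CS. Over 16 libraries its r was 0.555 with Trpv6 and 0.650 with S100g, and 0.527 and 0.204 with group means removed. The part of all these markers in the differences of S100g and Trpv6 was not tested.

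**Figure D2:**
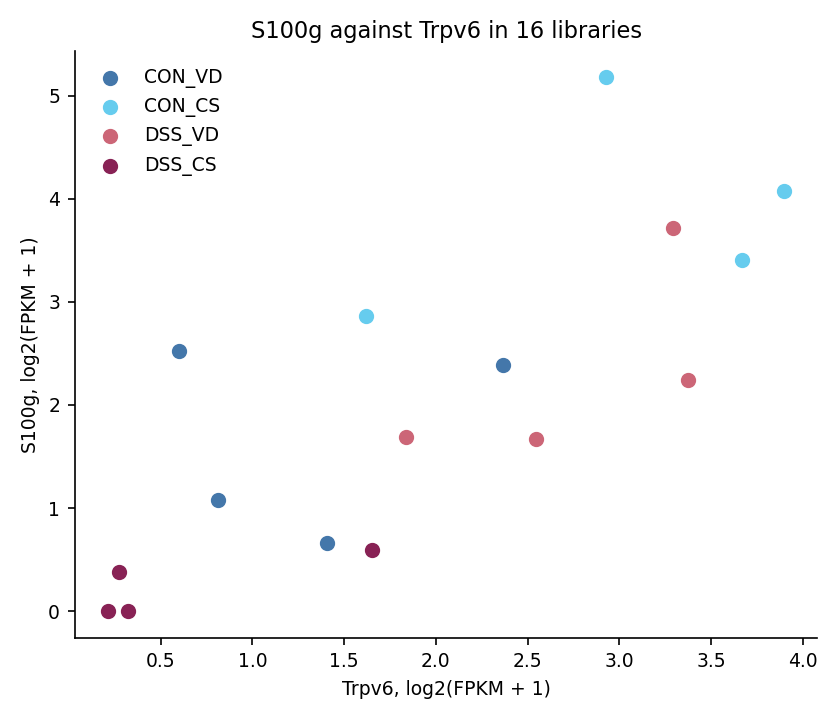
Level of S100g (vertical axis) against Trpv6 (horizontal axis), both in log2(FPKM + 1), where each point is 1 of 16 libraries coloured by group. Pearson's r is 0.775 over all libraries and 0.410 after the group means are removed. The DSS_CS libraries lie at the lower left and 3 of the 4 CON_CS libraries at the upper right.

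S100g and Trpv6 varied together over the libraries, as the plot of one against the other shows. Pearson's r of their log2 levels was 0.775 over 16 libraries, and 103 of the genes compared had a higher r with S100g. With group means removed r was 0.410, so much of the likeness lay between groups. Trpv6 and Atp2b1 had an r of 0.754, and 0.704 with group means removed. These points share libraries and groups, and the values are descriptions.

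Atp2b1, the pump that exports calcium from the cell (ENSMUSG00000019943, chromosome 10, 98914406 to 99026143, plus strand), stood close to the same level in all groups, with a somewhat higher mean in CON_CS. Its CON_VD libraries stood at 7.38, 11.3, 9.70 and 13.1 FPKM, with a mean of 10.4 ± 2.41 FPKM (SD, n = 4). The CON_CS libraries stood at 16.6, 13.4, 15.2 and 9.10 FPKM, with a mean of 13.6 ± 3.26 FPKM (SD, n = 4). These groups overlapped. The DSS_VD libraries stood at 9.93, 11.6, 9.51 and 10.4 FPKM, with a mean of 10.4 ± 0.903 FPKM (SD, n = 4). The DSS_CS libraries stood at 9.39, 8.36, 9.86 and 8.03 FPKM, with a mean of 8.91 ± 0.860 FPKM (SD, n = 4). Neighbouring groups in this order overlapped throughout. The log2 differences were 0.36 ± 0.20 (SE) for CON_CS against CON_VD and -0.20 ± 0.10 (SE) for DSS_CS against DSS_VD. The former was 0.22 without CON_VD replicate 1 and 0.26 without CON_CS replicate 1, and the latter was -0.20 without DSS_CS replicates 3 and 4. For DSS against water they were 0.02 ± 0.16 (SE) in VD mice, which became -0.08 when FPKM were rescaled by median-of-ratios factors, and -0.53 ± 0.17 (SE) in CS mice. In VD mice, leaving out 1 library gave -0.11 to 0.14, and in CS mice the value was -0.53 without DSS_CS replicates 3 and 4. The epithelial score differed by -1.22 between DSS_CS and DSS_VD and by -1.99 between DSS_CS and CON_CS, more than Atp2b1 did.

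Atp2c2, the secretory pathway pump (ENSMUSG00000034112, chromosome 8, 119700009 to 119757717, plus strand), was higher in CON_CS than in CON_VD in all libraries and lowest in DSS_CS. Its CON_VD libraries stood at 22.1, 33.5, 30.1 and 24.2 FPKM, with a mean of 27.5 ± 5.26 FPKM (SD, n = 4). The CON_CS libraries stood at 38.5, 37.2, 47.6 and 44.5 FPKM, with a mean of 42.0 ± 4.92 FPKM (SD, n = 4). On water the ranges did not overlap. The DSS_VD libraries stood at 19.9, 25.7, 18.4 and 11.8 FPKM, with a mean of 19.0 ± 5.72 FPKM (SD, n = 4). The DSS_CS libraries stood at 5.37, 3.45, 5.45 and 4.65 FPKM, with a mean of 4.73 ± 0.925 FPKM (SD, n = 4). The DSS_CS range lay below that of DSS_VD, and DSS_VD overlapped CON_VD. The log2 differences were 0.60 ± 0.14 (SE) for CS against VD on water and -1.77 ± 0.22 (SE) under DSS. Without DSS_CS replicates 3 and 4 the latter was -1.86, and without CON_CS replicate 1 the former was 0.64. DSS against water gave -0.54 ± 0.22 (SE) in VD mice, or -0.34 without DSS_VD replicate 4, and -2.91 ± 0.14 (SE) in CS mice, or -3.00 without DSS_CS replicates 3 and 4. The difference between those responses was -2.37 ± 0.28 (SE), and -2.50 without the 3 libraries with prostate markers. The epithelial score differed by -0.83 and -1.99 from water in VD and CS mice, and by -1.22 between DSS_CS and DSS_VD. Atp2c2 and this score had an r of 0.901 over 16 libraries, and 0.360 with group means removed. The part of the epithelial markers in the differences of Atp2c2 was not tested.

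Vdr, the receptor itself (ENSMUSG00000022479, chromosome 15, 97854425 to 97910630, minus strand), had close means in both water groups and was low under DSS. Its CON_VD libraries stood at 30.7, 41.0, 39.7 and 38.2 FPKM, with a mean of 37.4 ± 4.60 FPKM (SD, n = 4). The CON_CS libraries stood at 36.9, 37.0, 41.1 and 34.2 FPKM, with a mean of 37.3 ± 2.83 FPKM (SD, n = 4). Their log2 difference was 0.00 ± 0.11 (SE), or -0.04 after rescaling, and leaving out 1 library gave -0.09 to 0.05. The DSS_VD libraries stood at 11.9, 11.4, 6.39 and 9.38 FPKM, with a mean of 9.77 ± 2.50 FPKM (SD, n = 4). The DSS_CS libraries stood at 4.56, 1.99, 3.55 and 3.36 FPKM, with a mean of 3.36 ± 1.06 FPKM (SD, n = 4). Between the DSS groups, every DSS_CS library was below every DSS_VD library. The log2 difference from water was -1.86 ± 0.18 (SE) in VD mice and -3.17 ± 0.17 (SE) in CS mice, and that between DSS_CS and DSS_VD was -1.30 ± 0.23 (SE). Without DSS_CS replicates 3 and 4 these values in CS mice were -3.23 and -1.37. The epithelial score differed by -0.83 and -1.99 from water in VD and CS mice, and by -1.22 between the DSS groups. Vdr and this score had an r of 0.933 over 16 libraries, and 0.675 with group means removed. The part of the epithelial markers in the differences of Vdr was not tested. Thus in DSS_VD the receptor was low while Trpv6 was on average above its level in CON_VD, and in DSS_CS the receptor, the channel and the buffer were all low.

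Cyp24a1, the enzyme that breaks down active vitamin D (ENSMUSG00000038567, chromosome 2, 170482708 to 170497145, minus strand), was above 0 in 3 of 16 libraries. It stood at 0.0106 FPKM in CON_VD replicate 1, 0.0256 FPKM in DSS_CS replicate 1 and 0.0133 FPKM in DSS_CS replicate 2, and was listed at 0 in the other 13. Its exons overlap those of Pfdn4 on the other strand. It entered no comparison, and no order of the groups could be read at this level.

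**Figure D3:**
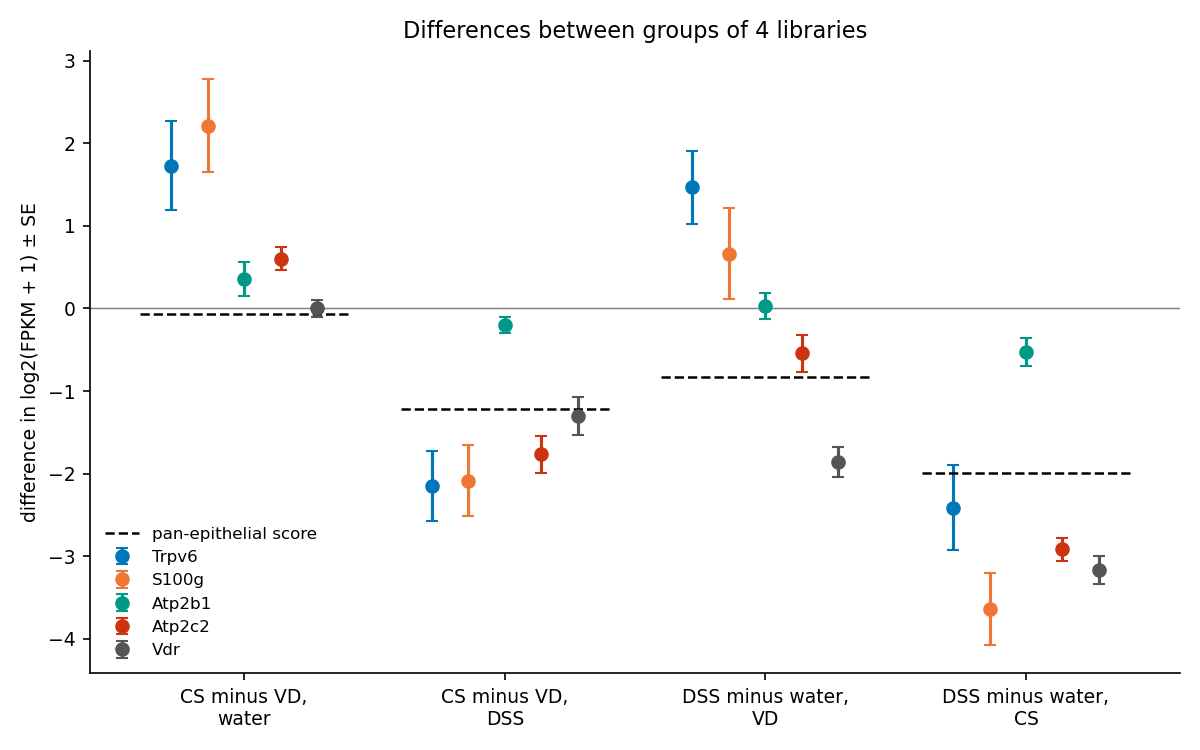
Differences in log2(FPKM + 1) (vertical axis) with their SE for 5 of the 6 genes in the 4 pairwise comparisons of groups of 4 libraries. Dashed lines are the difference of the epithelial score. S100g, Trpv6, Atp2c2 and, to a lesser degree, Atp2b1 lie above 0 for CS against VD on water and below 0 under DSS. Atp2b1 stays nearest to 0 under DSS between birth modes, at -0.20.

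The plot of differences sets the 5 genes with enough values side by side. Under DSS, S100g, Trpv6, Vdr and Atp2c2 had ranges in DSS_CS wholly below those of DSS_VD, as had 7.18% of all genes tested. On water, S100g and Atp2c2 had ranges in CON_CS wholly above those of CON_VD, as had 6.31% of all genes tested. The genes were picked with these contrasts known, so nothing is read from these counts. Ranges of DSS against water were not set beside a share of all genes, and nothing is read from them either. For DSS against water, limma called 40.9% of all genes tested in VD mice and 60.3% in CS mice. The comparisons also share groups: CON_CS, for example, enters both the comparison of birth modes on water and that of DSS in CS mice.

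The rest of the pathway was examined over 58 other genes in 6 lists. Of these, 18 entered no comparison, among them Trpv5, the renal calcium channel, which reached at most 0.0315 FPKM. Likewise Cyp27b1, whose enzyme makes active vitamin D, reached at most 0.178 FPKM, and Casr, the calcium-sensing receptor, at most 0.142 FPKM. Calb1, which encodes the larger calbindin of kidney and brain, reached at most 0.403 FPKM.

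Under DSS, 5 of 38 pathway genes differed between birth modes, 2 higher and 3 lower in DSS_CS, close to the 13.4% of all genes. Their median log2 difference was 0.03, beside 0.06 for all genes tested. Trpm6, an epithelial magnesium channel, fell by 0.91 ± 0.19 on the log2 scale (SE; limma, adjusted p = 0.0327), having entered only through the DSS_VD libraries, where it is higher. Its direction was therefore fixed by the filter. Atp2a3, an endoplasmic reticulum calcium pump, fell by 0.83 ± 0.22 (SE; limma, adjusted p = 0.0456). Abcb1a, an efflux transporter, fell by 1.42 ± 0.38 (SE; limma, adjusted p = 0.0446). Pth1r, the receptor for parathyroid hormone and its related peptide, rose by 0.74 ± 0.15 (SE; limma, adjusted p = 0.0319). Atp2b4, a plasma membrane calcium pump of the same family as Atp2b1, rose by 0.76 ± 0.19 (SE; limma, adjusted p = 0.0394), from 7.98 ± 1.38 FPKM (SD, n = 4) in DSS_VD to 14.4 ± 3.63 FPKM (SD, n = 4) in DSS_CS. Each of these 5 calls was lost in 5 to 9 of the 10 to 14 alternative settings run for it, and all 5 were lost without DSS_CS replicates 3 and 4, when limma called 0 pathway genes and 6 of all genes.

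On water, limma called none of 34 pathway genes between the birth modes, with 0.407% of all genes called. An unadjusted p under 0.05 was found for 6 of the 34, and for 19.6% of all genes. In none of the alternative settings run was a pathway gene called there. The list of intestinal vitamin D targets had a median log2 difference of -0.12 for CON_CS against CON_VD. S100g and Trpv6 are not in that list and were picked with their values known, so they are not set against it. Cldn2, a claudin of paracellular cation pores, was at 36.4 ± 8.09 FPKM (SD, n = 4) in CON_VD and 41.9 ± 4.19 FPKM (SD, n = 4) in CON_CS. Slc34a2, an apical phosphate carrier, was at 7.52 ± 3.02 FPKM (SD, n = 4) in CON_VD and 5.08 ± 0.732 FPKM (SD, n = 4) in CON_CS.

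DSS against water changed 20 of 36 pathway genes in VD mice, 9 higher and 11 lower, and 26 of 39 in CS mice, 12 higher and 14 lower. The shares of all genes called were 40.9% and 60.3%. Of the calls in CS mice, Cacna1d, Trpv4, Slc8a2, Stc1 and Fgf23 entered only through the DSS libraries. There Trpm6, Slc34a2 and Slc30a10 entered only through the water libraries. In VD mice, Stc1 entered only through the DSS libraries and Slc30a10 only through the water libraries. The directions of these calls were fixed by the filter, so nothing is read from the counts of higher and lower genes. Without DSS_CS replicates 3 and 4, 20 of 34 pathway genes were called in CS mice, 8 higher and 12 lower, and without CON_CS replicate 1, 25 of 36 were. The list of intestinal vitamin D targets was the one that moved in a single direction with all its tested genes: 5 of 5 fell in both birth modes, with median log2 differences of -1.45 in VD and -2.47 in CS mice. Of all genes tested, limma called 2364 of 13933 lower in VD mice and 3729 of 14372 in CS mice. Cldn2 fell by 2.98 ± 0.56 in VD mice (SE; limma, adjusted p = 0.00252) and fell by 4.15 ± 0.34 in CS mice (SE; limma, adjusted p = 1.16e-05). Its mean reached 5.07 ± 4.28 FPKM (SD, n = 4) in DSS_VD and 1.69 ± 1.36 FPKM (SD, n = 4) in DSS_CS. Slc34a2 fell by 1.42 ± 0.39 in VD mice (SE; limma, adjusted p = 0.0177) and fell by 2.47 ± 0.12 in CS mice (SE; limma, adjusted p = 7.04e-07). Cldn12, another claudin, fell by 0.87 ± 0.18 in VD mice and fell by 1.15 ± 0.09 in CS mice (SE; limma, adjusted p = 0.00451 and 1e-05). Abcb1a fell by 1.45 ± 0.40 and fell by 2.76 ± 0.27 in the same order (SE; limma, adjusted p = 0.017 and 3.32e-05), and Slc30a10, a manganese exporter, fell by 1.79 ± 0.27 and fell by 1.61 ± 0.23 (SE; limma, adjusted p = 0.000726 and 0.000278). Slc30a10 in both birth modes and Slc34a2 in CS mice entered only through the water libraries, where they are high. Their direction was therefore fixed by the filter, and their falls add nothing to the 5 of 5. The epithelial score was lower with DSS in the same libraries, and its part in these changes was not tested.

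Among the other entry genes, those of store-operated entry went in both directions. Orai1, Orai2 and Orai3, the pore subunits, rose by 0.62, 0.59 and 0.49 in VD mice (limma, adjusted p = 0.00837, 0.0323 and 0.0249). In CS mice they rose by 0.60, 0.90 and 0.98 (limma, adjusted p = 0.00305, 0.00039 and 0.000105). In VD mice the Orai2 call was lost in 8 of 13 alternative settings and that of Orai3 in 5 of 13. Stim1, the sensor of the store, fell by 1.0 ± 0.18 in VD mice and fell by 1.14 ± 0.14 in CS mice (SE; limma, adjusted p = 0.00194 and 0.00014). Trpm6 fell by 2.36 ± 0.20 and fell by 3.20 ± 0.26 (SE; limma, adjusted p = 5.59e-05 and 9.65e-06), from 13.1 ± 2.63 FPKM in CON_VD and 12.8 ± 4.26 FPKM in CON_CS (SD, n = 4 each). In CS mice it entered only through the water libraries, so its direction there was fixed by the filter. Trpv4, a cation channel, rose by 1.33 ± 0.11 in CS mice (SE; limma, adjusted p = 9.24e-06). It entered there only through the DSS libraries, so its direction was fixed by the filter, and it did not enter in VD mice.

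The pumps of the stores differed in direction too. Atp2a3 fell by 1.15 ± 0.17 in VD mice and fell by 2.09 ± 0.19 in CS mice (SE; limma, adjusted p = 0.000709 and 2.06e-05), from 117 ± 16.8 FPKM in CON_VD and 125 ± 8.52 FPKM in CON_CS (SD, n = 4 each). Atp2a2, the more widely expressed pump of the same family, rose by 0.74 ± 0.16 and 0.92 ± 0.13 (SE; limma, adjusted p = 0.00463 and 0.000345). Slc8b1, the mitochondrial sodium-calcium exchanger, fell by 1.18 ± 0.10 and fell by 0.81 ± 0.13 (SE; limma, adjusted p = 5.50e-05 and 0.00073).

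Among the hormone and sensing genes, Stc1, a secreted glycoprotein first known for calcium control in fish, rose by 1.44 ± 0.25 in VD mice and by 2.68 ± 0.40 in CS mice (SE; limma, adjusted p = 0.00155 and 0.000421). It stood at 2.85 ± 1.54 FPKM in DSS_VD and 9.52 ± 4.87 FPKM in DSS_CS (SD, n = 4 each), and entered through those libraries alone. Its direction was therefore fixed by the filter in both birth modes. Pth1r rose by 0.50 ± 0.13 and 1.52 ± 0.14 (SE; limma, adjusted p = 0.0126 and 1.87e-05). Fgf23, a hormone that lowers active vitamin D and phosphate, was singled out after its values were seen. It was listed at 0 in 3 CON_VD libraries, was at most 0.136 FPKM in CON_CS, and stood between 0.896 and 18.0 FPKM in DSS_VD and between 1.78 and 5.57 FPKM in DSS_CS. Its log2 difference in CS mice was 2.10 ± 0.23 (SE). It entered there only through the DSS libraries, so its direction was fixed by the filter and no test of it is reported. It did not enter the comparison in VD mice. Of the metabolism and receptor partner genes, 2 of 8 were called lower in VD mice and 3 of 8 in CS mice. Of all genes tested, 2364 of 13933 and 3729 of 14372 were called lower in the same order, so nothing is read from these counts. Cyp27a1, a vitamin D 25-hydroxylase, fell by 0.74 ± 0.23 and fell by 0.72 ± 0.24 (SE; limma, adjusted p = 0.0301 and 0.0261), calls that were lost in 8 of 13 and 7 of 14 alternative settings.

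**Figure D4:**
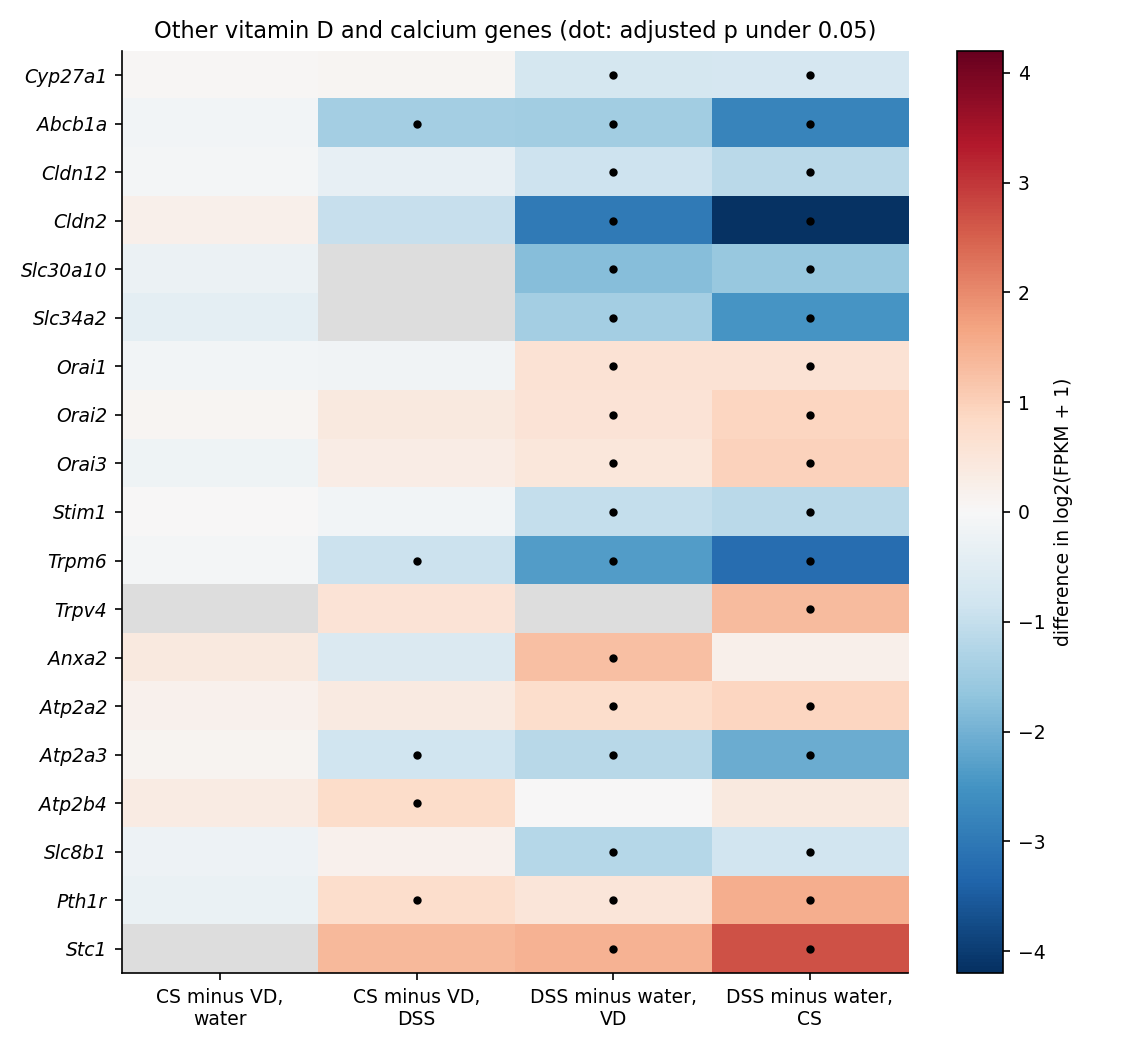
Differences in log2(FPKM + 1) (colour) of the other vitamin D and calcium genes that the text names by the rule, with 1 row a gene and 1 column a comparison. Dots mark an adjusted p under 0.05 in limma, and grey cells are genes that did not enter that comparison. No dot stands in the column of CS against VD on water and 5 stand in that of CS against VD under DSS. The claudin gene Cldn2 has the deepest blue, at -4.15 with DSS in CS mice.

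The map of these genes shows the calls of DSS against water in both birth modes side by side. The DSS responses of CS and VD mice differed by limma's interaction test in 3 of 40 pathway genes, 1 above and 2 below 0, while 13.2% of all genes were called. Without DSS_CS replicates 3 and 4, the 3 calls were all above 0. Pth1r responded more in CS mice, by 1.02 ± 0.19 (SE; limma, adjusted p = 0.00888), and this call held in all 22 alternative settings run for it. Atp2a3 had a difference between responses of -0.94 ± 0.26 (SE; limma, adjusted p = 0.0329), and 12 of 22 settings lost that call. Anxa2, an annexin that with S100a10 binds TRPV channels, rose in VD mice by 1.25 ± 0.22 (SE; limma, adjusted p = 0.00199) and differed by 0.23 ± 0.18 in CS mice (SE; limma, adjusted p = 0.292). The difference between these was -1.02 ± 0.29 (SE; limma, adjusted p = 0.0359), and 14 of 22 settings lost that call. No gene of the intestinal vitamin D target list was called in that test, and 2 of its 5 genes had an unadjusted p under 0.05, as had 30.7% of all genes.

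Each gene's pattern was set against 15233 genes over the 16 libraries by Pearson's r of log2 levels. Among the genes most like S100g were Rnf145 and Ect2, with r of 0.939 and 0.861, and 0.725 and 0.472 with group means removed. Trpv6 was most like Atrnl1, Mboat2 and Mms22l, with r of 0.887, 0.871 and 0.858, and 0.895, 0.729 and 0.701 with group means removed. Atrnl1 was also among the nearest of Atp2b1, at 0.914, after 2610507B11Rik at 0.924 and before Fat1 at 0.909. With group means removed, r with Atp2b1 was 0.858 for Atrnl1, 0.886 for 2610507B11Rik and 0.868 for Fat1. Vdr was most like Atoh1, Klk1 and Slc26a3, at 0.992, 0.991 and 0.991, and 0.818, 0.840 and 0.823 with group means removed. Atp2c2 was most like Atp8b1, Gfpt1 and B3gnt5, at 0.973, 0.967 and 0.963, and 0.660, 0.685 and 0.572 with group means removed. Vdr and Atp2c2 had an r of 0.926 with each other, and 0.550 with group means removed. The receptor's r with Trpv6 was 0.420 and with S100g 0.633, and 2271 and 1169 genes had a higher r with Trpv6 and S100g, respectively. With group means removed these r were 0.308 and 0.094, so the likeness of receptor and buffer lay mostly between groups.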

How the data were processed

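RNA was sequenced from 16 colon libraries, 4 in each of 4 groups taken from the labels' titles. The authors deposited FPKM, per gene and library, in a single table of 39328 genes. The submitters' processing notes name cutadapt, FastQC and the build GRCm38 and give no versions. Neither an aligner, a quantifier, an annotation nor a strand setting is given in the sources used here. Reads of exons that overlap on opposite strands, as in Cyp24a1 and Pfdn4, therefore cannot be told apart. S100g shares no exon with Ctps2. No counts were used here, so the depth of each library is unknown and no counting interval is given. Identifiers matched a symbol for 39181 genes and none for 147. Positions come from GENCODE annotation of GRCm38.

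Differences were fitted with limma 3.58.1 in R 4.3.3, with a mean-variance trend, on log2(FPKM + 1), for genes with at least 1 FPKM in at least 4 fitted libraries. Each pairwise comparison used its own 8 libraries, and the difference between DSS responses used all 16. The two-sided p were adjusted by Benjamini-Hochberg with a threshold of 0.05. The method was checked on simulated data. The 6 genes, the 58 pathway genes in 6 lists and the 10 marker lists were chosen with earlier results of these data known. Pathway genes named are those called in at least 2 comparisons, or among the 6 with the smallest p in 1 comparison. For each of the 6 genes with enough values the genes of highest Pearson's r were named, except 1 that is not reported here. Promoters were searched in Python 3.11.15. Alternatives were a pseudocount of 0.1, no filter, rescaling by median-of-ratios factors, 1 fit of all groups, a replicate block, and leaving out libraries.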

Additional observations from a re-analysis of the deposited data

Results flagged for a closer look

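S100g was higher in every CON_CS library than in every CON_VD library and lower in every DSS_CS library than in every DSS_VD library, with log2 differences of 2.21 and -2.09. Atp2c2 did the same, with 0.60 and -1.77. The fitted differences between these contrasts were -4.30 ± 0.77 (SE) and -2.37 ± 0.28 (SE). Both genes were chosen with their values known, so these are descriptions and no test of them is reported. Of all genes tested, 6.31% had ranges wholly above on water and 7.18% wholly below under DSS. The share with both was not computed, and nothing is read from the pattern. S100g entered the DSS comparison only through the DSS_VD libraries, so its direction there was fixed by the filter. Under limma's interaction test the DSS responses of CS and VD mice differed for Pth1r by 1.02, for Atp2a3 by -0.94 and for Anxa2 by -1.02, with the adjusted p given with the results.

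Of 96 groups of 4 libraries examined over 24 genes, 13 had a library far from the other 3 by Dixon's criterion, which chance alone gives in about 1 in 20 groups. S100g stood at 12.1 FPKM in DSS_VD replicate 4, and Trpv6 at 2.14 FPKM in DSS_CS replicate 1. Without DSS_VD replicate 4, S100g still had every DSS_CS library below every DSS_VD library. Anxa2 stood apart at 174 FPKM in CON_VD replicate 1, at 194 FPKM in CON_CS replicate 4 and at 490 FPKM in DSS_VD replicate 2, the library with the highest epithelial score of its group. Cldn12 did so at 17.6 FPKM in CON_VD replicate 2 and at 4.86 FPKM in DSS_CS replicate 2. In CON_VD replicate 2, Slc8b1 stood at 25.4 FPKM. In the CON_CS group Cyp27a1 stood at 6.95 FPKM in replicate 1, Stc1 at 0.566 FPKM in replicate 2 and Trpm6 at 6.48 FPKM in replicate 4. In DSS_VD, Pth1r stood at 3.09 FPKM in replicate 1 and Atp2b4 at 5.92 FPKM in replicate 2.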

How the results depend on the processing

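Of 372 differences of the 5 genes recomputed under other settings, 364 moved by less than 1 SD between replicates. This count was largely fixed in advance and is no measure of robustness. No filter, 1 fit of all groups and the replicate block leave a difference of group means unchanged here. Leaving out 1 of 4 libraries cannot move a pairwise difference by 1 SD. Signs changed only for Vdr on water and for Atp2b1 with DSS in VD mice, whose differences were near 0. The other 8 moved, all with a pseudocount of 0.1, which widened them: S100g to -4.16 and Trpv6 to -3.53 for DSS_CS against DSS_VD. Against CON_CS, S100g moved to -5.94, Trpv6 to -3.80, Vdr to -3.49 and Atp2c2 to -3.14, and for the difference between responses S100g moved to -6.90 and Trpv6 to -5.84. Of 1343 recomputed tests of named pathway genes, 1226 kept their side of the threshold, 98 lost a call and 19 gained one. No difference that was called changed sign. Differences that were not called could do so, and that of Trpm6 on water ran from -0.19 to 0.20 when 1 library was left out. For DSS_CS against DSS_VD, all genes called went from 1923 to 3 with no filter, 3871 with 1 fit of all groups, 2 with the replicate block and 6 without DSS_CS replicates 3 and 4, and pathway genes called from 5 to 0, 15, 0 and 0 in that order. Leaving out 1 library gave 0 to 2054 and 0 to 8. The 0 came without DSS_VD replicate 1, when 4264 genes had an unadjusted p under 0.05. On water, all genes called went from 54 to 3 with no filter and 7 with the replicate block, with 0 to 275 when 1 library was left out and 0 to 0 pathway genes. DSS against water gave 4050 to 5410 genes and 14 to 19 pathway genes in VD mice, and 6950 to 7909 and 20 to 25 in CS mice, when 1 library was left out. For the difference between responses, all genes called went from 2015 to 1042 with no filter, 1102 without DSS_CS replicates 3 and 4, and 637 also without CON_CS replicate 1, a setting added after seeing the data. Its pathway calls went from 3 to 5 with a pseudocount of 0.1 and to 1 with the replicate block. Leaving out 1 library gave 1056 to 2515 and 1 to 8. The causes were not tested. Same-numbered libraries did not pair: over 24 pairs the correlation of their deviations from group means ran from -0.278 to 0.128, and 5 correlated best with their own number. Rescaling lowered the median of all genes by 0.11 (log2) in CS mice with DSS against water, from 0.06 to -0.06, and the share of calls that were higher from 57.0% to 46.8%. That share went from 58.6% to 48.8% in VD mice and from 58.8% to 47.2% for DSS_CS against DSS_VD. S100g did not enter 4 of 8 leave-out fits of each pairwise comparison with DSS_CS, for want of 4 libraries at 1 FPKM.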
